A study of Mus musculus with 12 samples.

Results

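The genes described here are 9 markers of the fat cell: the hormones Adipoq and Lep, the regulators Pparg and Cebpa, and Fabp4, Slc2a4, Aqp7, Cidea and Car3, which act in fuel uptake, lipid storage and metabolism. They were chosen by gene symbol and are carried by 15 of the 38784 probes of the array design, so that 9 of 9 were found among 14654 named genes. The study set RNA of Sirt6 knockout (KO) mouse tissue against wild type (WT) tissue on 2-colour arrays. Sirt6 encodes a nuclear sirtuin, an enzyme that removes acyl groups from histones. Every array carried KO RNA in the dye Cy5 and WT RNA in Cy3, with no array of the opposite orientation, and its values are log2 ratios of KO over WT. A value of -1 therefore stands for a halving of the RNA in KO tissue.

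There were 6 groups of 2 arrays. At 29 days of age KO skin, spleen, liver and thymus were compared with WT tissue of the same kind and age, and the sources used here do not say how that WT RNA was made up. At 21 days KO spleen and liver were compared with a pool from 3 WT littermates. The sources used here give neither strain, sex nor the kind of Sirt6 allele. They also do not say that the 2 arrays of a group came from separate animals, so p-values measure only the spread between these arrays. At 29 days a Y-linked gene differed between the 2 arrays of every group, with values given below. At 21 days the spread may be technical. The 29-day arrays are numbered 1 and 2, those of 21-day spleen 6 and 11, and those of 21-day liver 2 and 11, where 2 is a number given by order. Ratios hold no level, so the tissues could not be checked against their defining markers, and how much fat a sample held cannot be read from them. In such bulk samples, fewer fat cells and less RNA per fat cell cannot be told apart.

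White fat stores triglyceride in a large droplet and signals its state through hormones. Leptin follows the size of the fat store and acts on the brain to limit food intake, while adiponectin acts on liver and muscle. The nuclear receptor encoded by Pparg and the transcription factor encoded by Cebpa drive the formation of fat cells and switch on most of the other genes named here. In mice, white fat lies below the skin and beside the spleen, and brown fat lies near the thymus.

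The arrays had 28629 to 38445 values each, and their number limits the precision. Signal over background was not used here. Both arrays of a group correlated with r between -0.28 in 29-day spleen and 0.46 in 29-day thymus over all probes, and the SD of the deposited log2 ratios lay between 0.308 and 0.657 at 29 days and between 0.717 and 1.14 at 21 days. The probes of Sirt6, whose place relative to the deletion is not known here, averaged -0.13 (skin), 0.17 (spleen), -0.23 (liver) and -0.69 (thymus) at 29 days and -1.18 (spleen) and -0.64 (liver) at 21 days, and passed the test in none of these (limma adjusted p between 0.103 and 1). The Y-linked gene Eif2s3y stood between -0.13 and 0.37 on the 4 arrays numbered 1 at 29 days, between 3.35 and 5.08 on the 4 numbered 2, and between -8.00 and -2.87 on the 21-day arrays. The ratio of a Y-linked gene thus moved with the array number at 29 days and with age, and its part in the results below was not tested.

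Across the 6 groups 1 of the 9 genes, Car3, passed the test, in 21-day spleen and 21-day liver. In 29-day skin 7 of the 9 stood below 0 on both arrays, led by Lep, and in 29-day spleen Car3, Adipoq and Fabp4 had mean log2 ratios under -2. In 29-day thymus 8 of the 9 had opposite signs on its 2 arrays. The plot of the 9 genes by group shows these values.

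**Figure D1:**
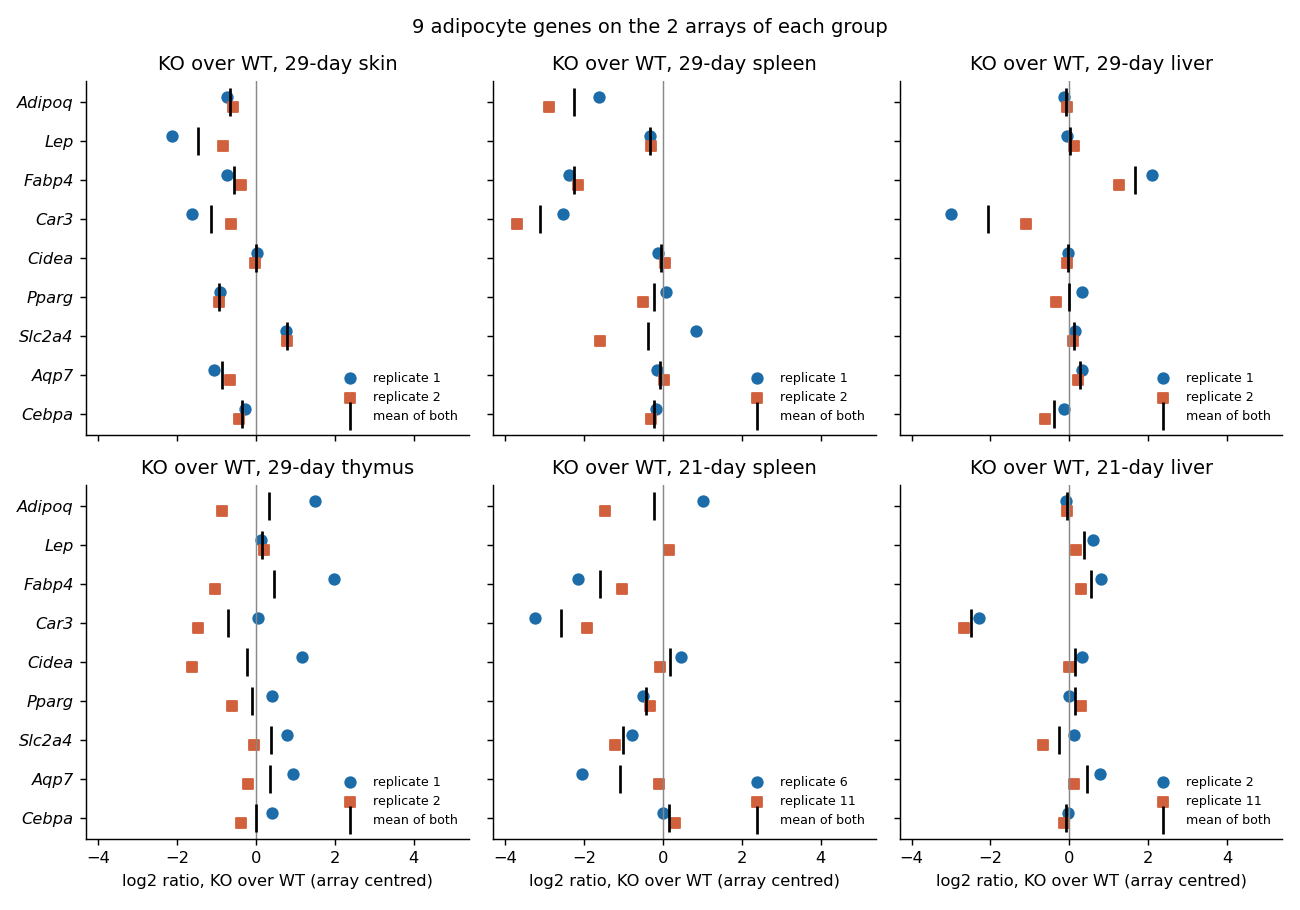
Log2 ratio of KO over WT (horizontal axis, each array centred on its median) of 9 adipocyte genes (vertical axis) in 6 panels, 1 per group; circles and squares are the 2 arrays and the black tick is their mean. Car3 lies left of 0 on both arrays of 5 groups, Lep is farthest left in 29-day skin, and the circles and squares of 29-day thymus lie on opposite sides of 0 for 8 of the 9 genes.

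Lep, the gene of leptin, had log2 ratios of -2.13 and -0.83 in 29-day skin. At the same age they were -0.33 and -0.31 in spleen, -0.07 and 0.12 in liver and 0.13 and 0.19 in thymus. At 21 days they were 0.60 and 0.16 in liver, and in spleen 0.15 on replicate 11 with no value on replicate 6, so Lep was not tested there. Both skin arrays thus lay below every other array of the series. The mean in skin was -1.48 (SE 0.28, n = 2 arrays, SE from the fit over 12 arrays), the 34th lowest of 30810 features, with limma's adjusted p at 0.272. Skin minus the mean of the other 29-day tissues was -1.44 (SE 0.33, adjusted p = 0.935). The groups ran, from lowest to highest mean, through skin, spleen, liver and thymus at 29 days to liver at 21 days, and the difference between no pair of groups of 1 age or 1 tissue passed the test.

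Adipoq, the gene of adiponectin, stood apart in spleen instead. At 29 days its log2 ratios were -1.62 and -2.89 in spleen, -0.74 and -0.57 in skin, -0.14 and -0.05 in liver and 1.49 and -0.86 in thymus. At 21 days they were 1.01 on replicate 6 and -1.46 on replicate 11 of spleen, and -0.08 and -0.05 in liver. Only in 29-day skin, 29-day spleen and both livers did both arrays share a sign, and both livers lay within 0.14 of 0. The mean in 29-day spleen was -2.26 (SE 0.61, n = 2), the 13th lowest of 30783 features, with an adjusted p of 1. The difference 29-day minus 21-day spleen was -2.03 (SE 0.86, adjusted p = 0.43), where the 21-day arrays lay on opposite sides of 0. Skin minus spleen at 29 days was 1.60 for Adipoq and -1.16 for Lep (SE 0.86 and 0.40, adjusted p = 1 for both).

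The promoters of both hormone genes are shown because Cebpa and Pparg are among the 9 genes and hormone genes are known targets of the factors they encode. RefSeq's windows on build GRCm38.p6 run from 250 bases before to 50 bases after the start of each gene, on the + strand at chr16:23146286-23146585 for Adipoq and chr6:29059971-29060270 for Lep. Capitals mark the letters CCAAT on either strand in Adipoq and the letters TTGCGCAA, a full binding palindrome of the C/EBP factors, in Lep.
Adipoq: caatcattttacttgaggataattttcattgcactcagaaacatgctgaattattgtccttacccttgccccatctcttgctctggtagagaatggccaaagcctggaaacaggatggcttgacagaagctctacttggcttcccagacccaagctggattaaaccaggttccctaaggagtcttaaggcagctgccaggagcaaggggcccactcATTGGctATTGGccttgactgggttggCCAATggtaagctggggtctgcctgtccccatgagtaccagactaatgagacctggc
Lep: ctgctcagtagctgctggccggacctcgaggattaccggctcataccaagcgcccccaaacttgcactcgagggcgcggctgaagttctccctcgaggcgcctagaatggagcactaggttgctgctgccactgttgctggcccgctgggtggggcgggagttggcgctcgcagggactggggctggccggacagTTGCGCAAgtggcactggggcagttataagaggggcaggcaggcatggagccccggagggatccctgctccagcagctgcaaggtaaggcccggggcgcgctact
Both strands were searched for 3 motifs, none of them a motif of the receptor encoded by Pparg. TTGCGCAA began 55 bases before the start of Lep, was absent from the Adipoq window and was held by 60 of 32851 promoter windows (0.183%). CCAAT occurred 3 times in the Adipoq window, was absent from the Lep window and was held by 37.4% of promoters. TATAAA, held by 13.6% of promoters, was found in neither window. These are descriptions of letters; no binding was measured. The promoter table held 5 of the 9 genes and not Fabp4, Car3, Cidea or Slc2a4.

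Of the regulators, Pparg lay below 0 on both 29-day skin arrays, at -0.91 and -0.95, and its 3 probes gave values between -1.40 and -0.44 there. The mean of -0.93 (SE 0.26, n = 2) was the 152nd lowest of 30810 features and had an adjusted p of 0.693. In the other 29-day tissues its values were 0.08 and -0.49 in spleen, 0.31 and -0.34 in liver and 0.40 and -0.61 in thymus. In 29-day spleen its 3 probes disagreed on replicate 2, with values of -1.62, -0.38 and 0.52. At 21 days Pparg had -0.49 and -0.33 in spleen and -0.02 and 0.30 in liver. Replicate 6 of 21-day spleen was measured by 1 of the 3 probes. Skin was therefore the 29-day tissue where both Pparg arrays lay on 1 side of 0, though skin minus the mean of the other tissues (-0.82, SE 0.31) did not pass the test (adjusted p = 1).

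Cebpa varied less than the other 8 genes by its fitted SE of 0.21. At 29 days its log2 ratios were -0.28 and -0.43 in skin, -0.17 and -0.29 in spleen, -0.14 and -0.63 in liver and 0.40 and -0.38 in thymus. At 21 days they were 0.01 and 0.30 in spleen and -0.03 and -0.14 in liver. No mean lay farther from 0 than -0.38. The 11 further transcription factors of fat formation had a median of 0.09 in 29-day skin, where 3 lay below 0 and 6 above 0 on both arrays, and none passed the test. Klf15, a factor that promotes fat formation and is induced by glucocorticoids, had the highest mean of them there (0.70, adjusted p = 0.568).

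Fabp4 encodes the fatty acid carrier of fat cells, which macrophages and endothelium also make. It had -2.37 and -2.15 in 29-day spleen and -0.73 and -0.39 in 29-day skin, but 2.08 and 1.25 in 29-day liver. In 29-day thymus it had 1.99 on replicate 1 and -1.05 on replicate 2. At 21 days it had -2.16 and -1.03 in spleen and 0.79 and 0.30 in liver. Both arrays were below 0 in spleen and above 0 in liver at both ages. The mean was -2.26 in spleen and 1.67 in liver at 29 days (SE 0.57, adjusted p = 1 for both). At 21 days it was -1.59 in spleen and 0.55 in liver (adjusted p = 0.12 and 0.644). Beside the higher values in 29-day liver, the 5 measured macrophage markers had array medians of 1.09 and 0.10 there. The 8 endothelium markers had 0.02 and -0.08. The part of either list in the Fabp4 value was not tested.

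Aqp7, the glycerol channel of fat cells, had -1.07 and -0.67 in 29-day skin, and all 3 probes were below 0 on both skin arrays. In the other 29-day tissues it had -0.15 and 0.03 in spleen, 0.33 and 0.23 in liver and 0.93 and -0.22 in thymus. At 21 days it had -2.05 and -0.10 in spleen and 0.77 and 0.12 in liver. The low 21-day spleen value rested on 1 probe at -6.32, beside -0.04 and 0.21 for the other two on that array. The mean in skin was -0.87 (SE 0.41, adjusted p = 1).

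Slc2a4 encodes the insulin-responsive glucose transporter, which skeletal muscle and heart also carry. It was the 1 gene of the 9 above 0 on both 29-day skin arrays, at 0.77 and 0.78 (mean 0.78, SE 0.47, adjusted p = 1). In the other tissues of that age it had 0.84 and -1.60 (spleen), 0.14 and 0.09 (liver) and 0.79 and -0.05 (thymus). At 21 days it had -0.79 and -1.21 in spleen and 0.13 and -0.67 in liver. On both skin arrays the 9 measured skeletal muscle markers also lay above 0 by their median, 0.38 and 0.55, with 6 above and 1 below 0 on both arrays. The part of muscle RNA in the Slc2a4 value was not tested.

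Cidea, a droplet protein that mice make mainly in brown fat, stayed within 0.13 of 0 on all 6 arrays of 29-day skin, spleen and liver. Its values were 1.17 and -1.61 in 29-day thymus. At 21 days they were 0.47 and -0.08 in spleen and 0.32 and -0.02 in liver. Thymus was thus the tissue where Cidea moved farthest from 0, in opposite directions on the 2 arrays.

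Car3 encodes carbonic anhydrase 3, an enzyme abundant in fat, skeletal muscle and liver whose level in rat liver differs between the sexes. Its log2 ratios were -3.23 and -1.92 in 21-day spleen and -2.29 and -2.68 in 21-day liver. It fell in both, with a mean of -2.58 in spleen (5.96-fold lower, adjusted p = 0.0375) and of -2.49 in liver (5.61-fold lower, adjusted p = 0.0452, SE 0.54 for both). In spleen 1 of 8 adipocyte genes passed the test, beside 4.13% of all features, with 3.00% lower. In liver 1 of 9 did, beside 2.54% of all features, with 2.09% lower. These percentages are of all features tested. Fitted on the 4 arrays of that age alone, 0% of 21531 features passed limma's test in either tissue (2321 in spleen and 1404 in liver had an unadjusted p under 0.05), and Car3 had adjusted p-values of 0.338 in spleen and 0.448 in liver, so the calls rest on sharing the spread with the 29-day arrays. Scaling the arrays to the same spread took Car3 to 2.53-fold lower in spleen and 3.44-fold lower in liver, and quantile normalization to 2.71-fold and 3.01-fold, with neither called (adjusted p between 0.369 and 0.635).

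At 29 days Car3 had -2.53 and -3.71 in spleen, -3.01 and -1.10 in liver, -1.63 and -0.64 in skin and 0.05 and -1.47 in thymus. The spleen mean of -3.12 (8.68-fold lower) was the 4th lowest of 30783 features, though its adjusted p was 0.524. That fold was 15.2 after quantile normalization and 15.5 when Car3 rested on probe 1, the one complete on 12 arrays. The means in liver, skin and thymus were -2.05, -1.14 and -0.71 (adjusted p = 0.671, 1 and 0.918). Of the 12 arrays 11 thus lay below 0, with replicate 1 of thymus the exception. The difference 29-day minus 21-day was -0.54 in spleen and 0.44 in liver (SE 0.76, adjusted p = 0.856 and 0.92). None of the 8 genes tested in spleen (all but Lep) and of the 9 in liver passed the test of these age differences, beside 0.0866% of all features in spleen and 0.0138% in liver. Car3 has 2 probes, and probe 2 had no value on replicate 6 of 21-day spleen, where the value rests on probe 1 alone. On the other 11 arrays probe 1 lay farther from 0 than probe 2, and both shared a sign on 10 of them.

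**Figure D2:**
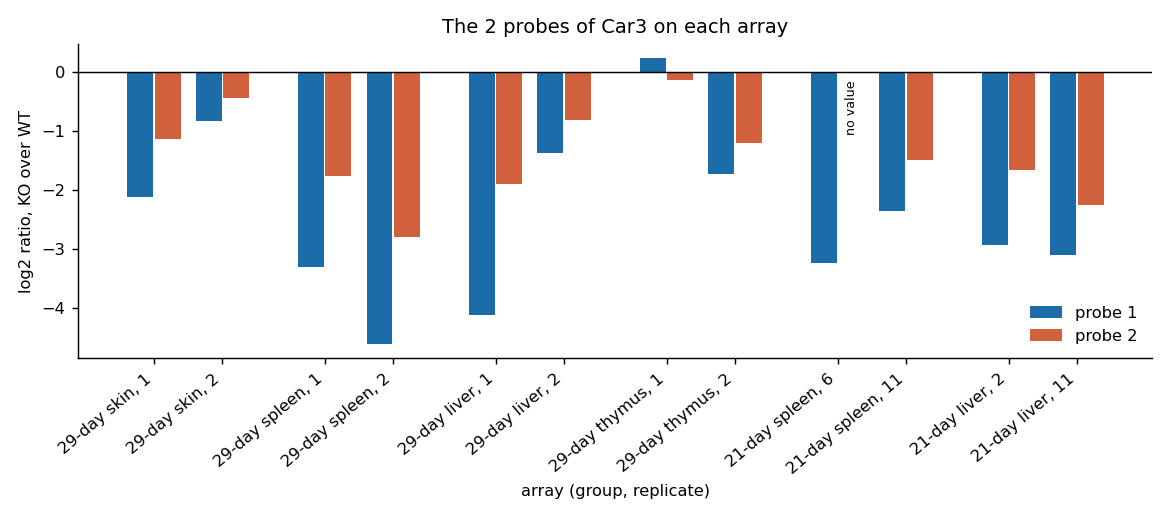
Log2 ratio of KO over WT (vertical axis) of the 2 Car3 probes on each of 12 arrays (horizontal axis, group and replicate number). Probe 1 (blue) reaches -4.61 on replicate 2 of 29-day spleen and is farther from 0 than probe 2 (orange) on each array where both have a value.

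In 29-day skin no adipocyte gene passed the test, in which 0.0389% of all features (12 of 30810) were called. At an unadjusted p under 0.05, 2 of the 9 (Lep and Pparg) were lower and none was higher, against 1.80% and 1.46% of all features. Both skin arrays lay below 0 for 7 of the 9 genes and above 0 for 1, beside 26.9% and 28.2% of all features. The median of the 9 means was -0.66, and that of all features 0.01. Lep and Pparg passed the test when the arrays were scaled to the same spread (adjusted p = 0.0175 and 0.0497), after quantile normalization (0.00656 and 0.0278, with Aqp7 at 0.0419) and with array weights (0.0149 and 0.0423). With array weights the calls over all features rose too, to 569 from 12, the most under any setting. Both skin arrays had the same weight (2.76), as did both arrays of every group. The weights thus set groups apart and do not tell a better array from a worse one within a group. Lep and Pparg did not pass in the fit of 29-day arrays alone (limma adjusted p = 0.152 and 0.446), in which 0.140% of features were called. Nor did they pass when arrays were centred on 126 housekeeping genes of the ribosome and respiratory chain (0.87 for both).

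Other genes of fat storage were described with lists of 66 measured genes out of 76. Of 15 genes of lipid droplets, uptake and lipolysis, 10 lay below 0 and 1 above 0 on both skin arrays (median -0.32). Lpl, the lipase that frees fatty acids from blood lipoproteins, had -1.27 and -1.00. Gpd1, which makes the glycerol backbone of triglyceride, had -1.17 and -0.79, and the droplet coat gene Plin1 had -0.49 and -0.53. Of 6 genes of adipocyte structure, 4 lay below 0 and 0 above on both arrays (median -0.63). Among them Aoc3, an amine oxidase on the fat cell surface, had -1.97 and -1.07, and Mest, whose level tracks fat expansion in mice, had -1.28 and -1.53 (adjusted p = 0.511 and 0.176). None of these genes passed the test.

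Not every fat gene followed that direction in skin. Cidec, a droplet protein of white fat, had 0.12 and 0.41, and Retn, the hormone resistin, had 0.12 and -0.16. The 7 measured secreted factors had a median of -0.02, and the leptin receptor gene Lepr had -0.30 and -0.27. Dlk1, a marker of fat progenitors, had 0.86 and 0.62 (adjusted p = 0.376). The fibroblast list was also below 0 in skin (median -0.35, 4 of 6 below 0 on both arrays), while 3 of 3 keratinocyte markers were above 0 (median 0.30) and the 5 sebaceous markers had a median of -0.01. The part of the tissue's make-up in the values of the 9 genes was not tested.

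In 29-day spleen 0% of 30783 features passed limma's test, and 1015 of them (3.30%) had an unadjusted p under 0.05. At that level 3 of the 9 genes (Car3, Adipoq and Fabp4) were lower and none higher, against 2.39% and 0.906% of all features. Both arrays lay below 0 for 5 of the 9 genes, beside 17.7% of all features, and above 0 for 0 of them, beside 19.1%. These 5 were Car3, Adipoq, Fabp4, Lep and Cebpa, and with arrays centred on the 126 housekeeping genes the means of Lep and Cebpa turned to 0.11 and 0.20. With that centring Car3, Adipoq and Fabp4 kept means of -2.69, -1.83 and -1.83. Replicate 2 of this group stood apart, since the housekeeping genes had a median of -1.10 on it and 0.25 on replicate 1.

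Genes of lipid storage lay below 0 on both 29-day spleen arrays for 9 of 15 and above 0 for 0 (median -0.48, with array medians of -0.08 and -1.06). Cidec had -1.04 and -1.42, and Pck1, which in fat supplies glycerol for triglyceride, had -1.38 and -2.60. Rbp4, a vitamin A carrier made in liver and fat, had -0.93 and -1.35, whereas Plin1 had -0.16 and 0.22. Markers of other organs also lay away from 0 in spleen. All 5 hepatocyte markers were below 0 on both arrays (median -1.33), led by the albumin gene Alb at -1.81 and -2.38. Of 5 exocrine pancreas markers 3 were above 0 on both and 0 below (median 0.72, with array medians of 0.055 and 0.97). The 4 mesothelium markers had a median of -0.31. Markers of B cells, lymphocytes that spleen holds, were below 0 on both arrays for 3 of 4 (median -0.54). The thymocyte list, named for cells of the thymus, was below 0 on both for 4 of 4 (median -0.57, lowest Rag1 at -0.69). What part these had in the values of Car3, Adipoq and Fabp4 was not tested. All list values of this tissue rest on median centring. With housekeeping centring means in 29-day spleen rose, as that of Lep did from -0.32 to 0.11. List medians below 0 would then lie closer to 0 or above it.

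**Figure D3:**
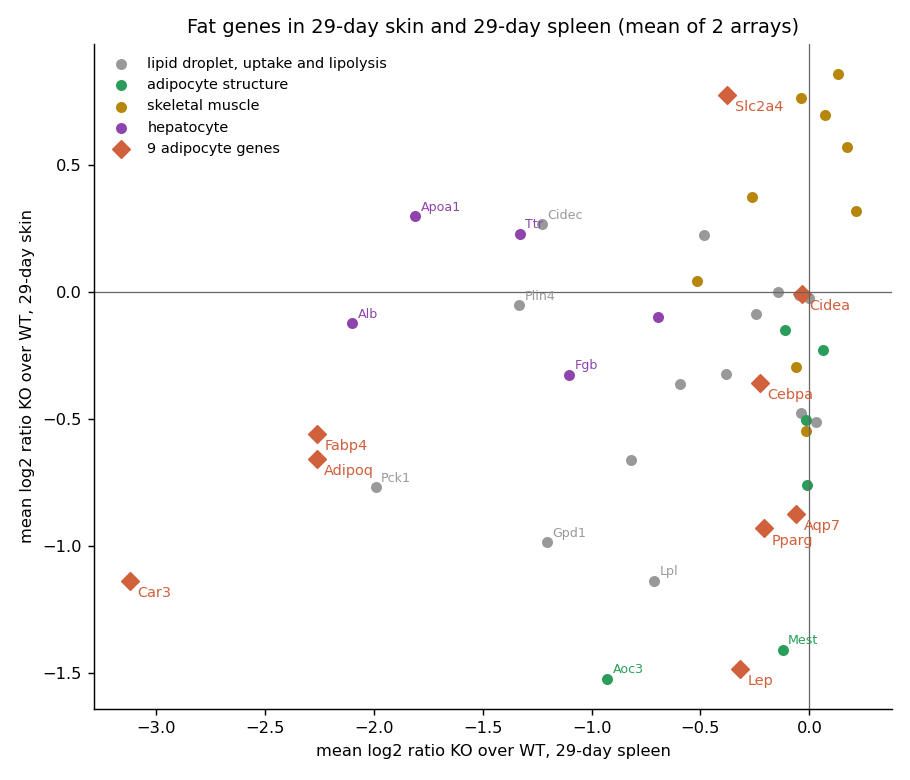
Mean log2 ratio of KO over WT in 29-day skin (vertical axis) and 29-day spleen (horizontal axis), each over 2 arrays; diamonds are 9 adipocyte genes and circles are genes of 4 further lists. Car3, Adipoq and Fabp4 lie far left, Lep and Pparg lie low and near 0 in spleen, and Slc2a4 lies above 0 in skin.

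Setting both tissues side by side, Lep, Pparg and Aqp7 had lower means in skin (-1.48, -0.93 and -0.87) than in spleen (-0.32, -0.21 and -0.06), and Adipoq, Fabp4 and Car3 had higher means in skin (-0.66, -0.56 and -1.14) than in spleen (-2.26, -2.26 and -3.12). For 3 of the 9 genes both skin arrays lay below both spleen arrays, beside 11.9% of all features, and for 3 both lay above, beside 12.6%. The differences did not pass the test for any of the 9 genes, nor did that of any other feature (0% of 30735 called by limma, 685 with an unadjusted p under 0.05), so the contrast between the 2 tissues is a description of 4 arrays.

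In 21-day spleen 5 of the 8 genes tested lay below 0 on both arrays and 1 above, beside 29.1% and 25.2% of all features. Besides Car3 these were Fabp4, Pparg, Slc2a4 and Aqp7, while Adipoq and Cidea had opposite signs on its arrays. Replicate 6 stood apart, with 10155 probes lacking a value, against 1540 on replicate 11, and a housekeeping median of -0.77, against -0.07. With housekeeping centring Pparg and Adipoq averaged 0.0093 and 0.20 there, and the Car3 call was lost (adjusted p = 0.111). Of the other secreted factors Retn rose there (0.83 and 1.93, adjusted p = 0.0343). Of 12 lipid storage genes tested 3 lay below and 2 above 0 on both arrays (median -0.03). Hepatocyte markers moved in this tissue too: Alb and Apoa1 fell (adjusted p = 0.0277 and 0.0434), and all 4 tested lay below 0 on both arrays. So did all 4 pancreas markers, of which Ctrb1, Cel and Clps fell (adjusted p = 0.00363, 0.00988 and 0.0283), with a list median of -1.74. Each of these calls was lost when arrays were scaled, after quantile normalization, with housekeeping centring and with array weights. At 29 days that list had a median of 0.72, with array medians of 0.055 and 0.97, and its part in the spleen values of the 9 genes was not tested.

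Liver holds few fat cells, and there the 9 genes lay on both sides of 0. Farthest from 0 were Car3, at -2.05 at 29 days and -2.49 at 21 days, and Fabp4, at 1.67 at 29 days. At 29 days 4 lay below and 3 above 0 on both arrays, beside 22.9% and 23.9% of all features, and 0 of 9 were called beside 0.104% of all features. At 21 days 3 lay below and 3 above, beside 33.7% and 31.8%, and 1 of 9 (Car3) was called beside 2.54% of all features. Genes of fatty acid synthesis are set beside them here. At 29 days 2 of 9 genes of that list fell (Fasn and Me1, list median -1.34), beside 0.104% of all features called, and all 9 lay below 0 on both arrays. Both calls were lost with housekeeping centring, and when any 1 array of 29-day skin or thymus was left out. That of Me1 was also lost with no centring and with features complete on 12 arrays. The same held for Me1 without any 1 array of 21-day liver or 29-day spleen. At 21 days 5 of 8 tested genes fell (Scd1, Thrsp, Acss2, Acly and Me1, median -1.40), beside 2.09% of all features. These 5 calls were lost after quantile normalization, and 0 features were called on the 21-day arrays alone. Those of Acly and Me1 were also lost when any 1 array of 29-day liver, skin or thymus was left out. Scd1, which makes monounsaturated fatty acids, had liver values of -2.31 and -3.21 at 29 days and -3.26 and -3.46 at 21 days (adjusted p = 0.0784 and 0.00678). In 29-day skin it had -2.88 and -2.47 (adjusted p = 0.125), beside a list median of -0.44.

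In 29-day thymus the 2 arrays disagreed on the fat genes. The array medians of the 9 genes were 0.79 on replicate 1 and -0.61 on replicate 2, and 8 of 9 had opposite signs, Lep being the exception. Both arrays lay below 0 for 0 of the 9 and above 0 for 1, beside 33.7% and 38.5% of all features, and 0 of 9 were called beside 0.0130% of all features. Over all probes these arrays correlated best among the 6 groups (r = 0.46). Lipid storage genes split the same way, with array medians of 0.80 and -0.43 and opposite signs for 13 of 15, and adipocyte structure genes had 0.72 and -0.53. Pck1 had 1.78 and -1.54, Lpl had 1.49 and -1.28, and the brown fat gene Ucp1, which uncouples respiration to make heat, had 0.59 and -2.54.

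Some marker lists of other cells split in the thymus as well. All 6 fibroblast markers had opposite signs on its arrays (array medians 0.53 and -0.18), as did 5 of 8 endothelium markers (0.38 and -0.19). Their part in the values of the 9 genes was not tested. The 4 heart muscle markers were below 0 on both arrays (medians -1.53 and -1.92), and Mb, the myoglobin gene of heart and red muscle, fell (-2.82 and -2.80, adjusted p = 0.00674), a call lost with housekeeping centring (0.227) and without replicate 1 (0.205) or replicate 2 (0.121) of thymus. The 4 measured thymocyte markers had array medians of -0.66 and 0.00. Fatty acid synthesis genes were below 0 on both arrays for 7 of 9. A mean over the 2 thymus arrays describes neither of them for the fat genes, and the part of tissue adjoining the thymus was not tested.

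**Figure D4:**
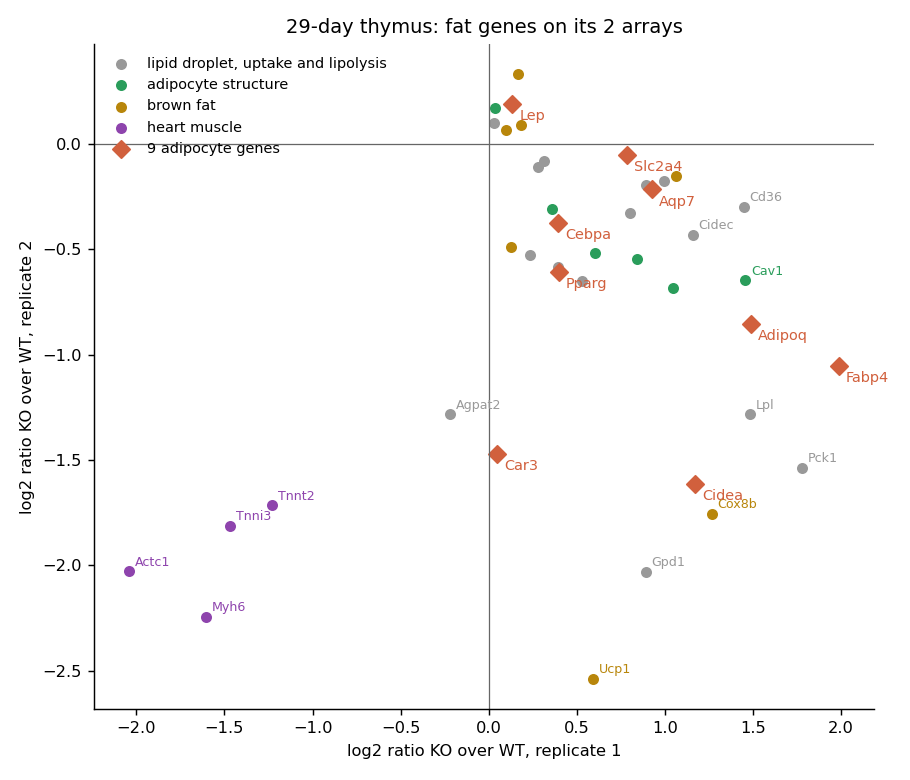
Log2 ratio of KO over WT on replicate 2 (vertical axis) against replicate 1 (horizontal axis) of 29-day thymus for 9 adipocyte genes (diamonds) and genes of 4 lists (circles). Of the diamonds 8 lie at the lower right, above 0 on replicate 1 and below 0 on replicate 2, while the heart muscle genes lie below 0 on both.

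For the 9 genes the array median was below 0 on both arrays of skin (-0.74 and -0.57), spleen (-0.17 and -0.49) and liver (-0.04 and -0.05) at 29 days, and of spleen at 21 days (-0.64 and -0.33). With housekeeping centring 6 of the 9 means in 29-day spleen lay above 0. Genes for receptors of leptin, adiponectin and insulin stayed near 0 in 29-day skin (array medians 0.04 and 0.03), and the brown fat list had 0.04 and 0.19 there.

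**Figure D5:**
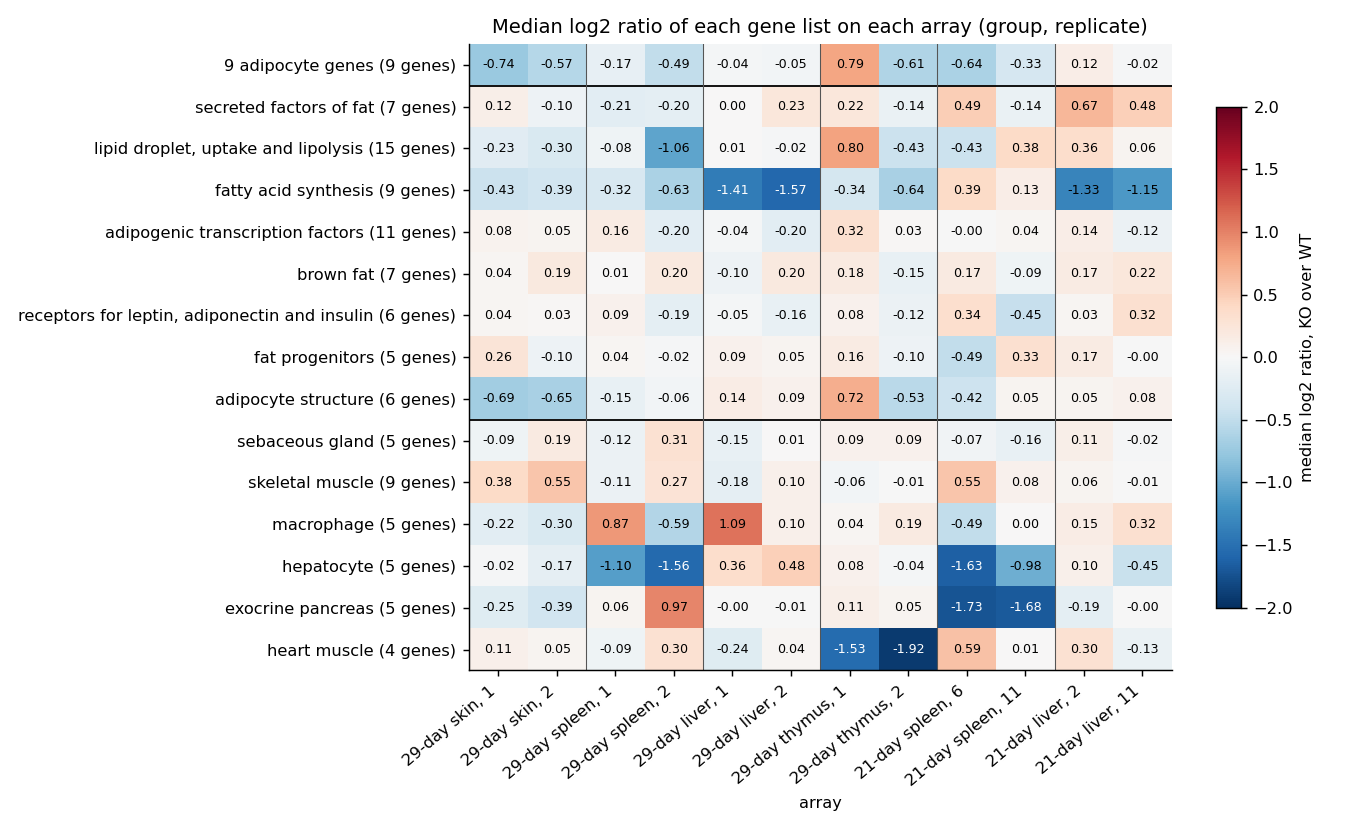
Median log2 ratio of KO over WT of 15 gene lists (rows, with the number of measured genes) on each of 12 arrays (columns, group and replicate number); red is higher and blue lower in KO tissue. The top row holds the 9 adipocyte genes, the 8 rows under it fat pathways, and the last 6 rows markers of other cell types, where hepatocyte markers are blue in both spleen groups and heart muscle markers in thymus.

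Genes whose 12 centred ratios ran most like those of Adipoq were ranked by Pearson's r among 11218 genes with a value on every array, as a description of arrays that share tissues and ages. The highest were Slc27a2 (r = 0.91), Fcrl1 (0.90), Cygb (0.89), Cd55 (0.88), Cidec (0.86), Dcn (0.86), Ifi27 (0.86) and Gpx8 (0.86). Cidec was the 1 gene of the fat lists among these 8. Fabp4, the closest of the 9 genes, came at place 180 (r = 0.58). For Lep, over the 11 arrays that measured it and 13824 genes, the highest were Aox4 (0.94), Glb1l2 (0.93), Sfrp2 (0.92), Rnase2b (0.92) and Casq1 (0.91). Aqp7 came at place 36 (r = 0.82). Spearman's rank correlation with Lep was 0.83, 0.81 and 0.83 for Aox4, Glb1l2 and Sfrp2. It was lower for Rnase2b, Casq1 and Aqp7, at 0.51, 0.53 and 0.53. Between Adipoq and Lep themselves r was 0.21.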

How the data were processed

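RNA of 12 KO tissues was measured against WT tissue on 2-colour arrays, with KO RNA in Cy5 and WT RNA in Cy3 per the labels. The authors deposited log2 ratios per probe. Base 2 is inferred from their range of -8.08 to 9.75, and the sources used here do not state the correction, normalization or centring. Each array's median was subtracted. Of 38784 probes, 22204 had a single symbol in the platform annotation, each found in RefSeq's gene table through its gene ID, and 16580 had none. Per array, probes of the same gene were averaged, and unnamed probes stood alone, for 31234 features.

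Limma 3.58.1 (R 4.3.3) estimated the 6 group means jointly from 12 arrays with moderated variances (up to 6 residual and 3.57 prior degrees of freedom). Group means were tested against 0, and 4 contrasts against each other, two-sided, with Benjamini-Hochberg adjusted p-values over all features and a threshold of 0.05. The test against 0 leaves out the spread of the WT RNA. Testing in a group required values on both its arrays and on both arrays of 2 further groups or more. The steps were tested on simulated data.

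The 9 genes, the 8 fat lists, the 12 cell lists and the tests were chosen with earlier results of these data known. Named were the 9 genes, the check genes, up to 4 called members per list or the 2 of largest mean, and the genes most like Adipoq and Lep. Lep was ranked over the 11 arrays that measured it, which departs from the rule of 12. Other genes were named after their values were seen. Centring, scaling, normalization, filters, the arrays fitted, a replicate block, variance moderation, array weights and the threshold were varied, and each array was left out in turn. Complete probes alone, omitting both 21-day spleen arrays and contrasts of further pairs of groups were added after seeing the data.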

Additional observations from a re-analysis of the deposited data

Results flagged for a closer look

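For some of the 9 genes both arrays of 1 group lay above 0 and both arrays of another group below 0. The pairs of groups compared were chosen after seeing the data, and each difference was tested with limma over all features. For Lep, 29-day thymus minus 29-day skin was 1.64 (adjusted p = 0.955) and 29-day thymus minus 29-day spleen was 0.48 (adjusted p = 1). For Fabp4, 29-day spleen minus 29-day liver was -3.92 (adjusted p = 0.581), 29-day skin minus 29-day liver was -2.22 (adjusted p = 1) and 21-day spleen minus 21-day liver was -2.14 (adjusted p = 0.259). For Aqp7, 29-day skin minus 29-day liver was -1.15 (adjusted p = 1) and 21-day spleen minus 21-day liver was -1.52 (adjusted p = 0.266). For Cebpa, 29-day minus 21-day spleen was -0.38 (adjusted p = 0.698) and 21-day spleen minus 21-day liver was 0.24 (adjusted p = 0.713). None of these differences passed the test.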

How the results depend on the processing

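With 2 arrays a group, no dye swap and WT RNA of unknown make-up at 29 days, the values describe few arrays. Dim spots could not be removed. Of 53 tested values of the 9 genes, 28 kept their sign in every alternative that gave a value (10 to 12 other settings and up to 12 fits without 1 array), and 25 did not. The fit of each probe on its own gave counts of calls alone.

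The 1 call in 21-day liver (Car3) came to 0 when arrays were scaled, after quantile normalization, with centring on 126 housekeeping genes, with features complete on 12 arrays, with arrays of the same age alone, with the replicate block and with array weights, and the count ranged from 0 to 1 with 1 array left out. It was lost without 8 of the 12 arrays: both arrays of 21-day liver, 29-day skin, 29-day spleen and 29-day thymus. The 1 call in 21-day spleen (Car3) came to 0 under scaling, quantile normalization, housekeeping centring, same-age arrays and array weights. It was also lost without replicate 6 of that group or any array of 29-day skin or thymus. Without replicate 11 the group rests on replicate 6 alone, where Aqp7 stood at -2.05 through 1 probe at -6.32. In 29-day skin 0 calls became 2 under scaling, 3 under quantile normalization and 2 under array weights, and for skin minus the other tissues 1 under quantile normalization. Over all features 569 were then called in skin under array weights (12 as reported). For skin minus the other tissues 171 were called under quantile normalization (0 as reported). Calls in 29-day minus 21-day spleen also appeared without replicate 11 of 21-day spleen. That fit leaves 1 array in the group, so its calls are not read here. The cause of these shifts was not tested.

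Signs turned as follows. With no centring Cidea had -0.020 and Pparg -0.030 in 21-day liver, and Cidea 0.0455 and Aqp7 0.021 in 29-day spleen. Scaling gave Pparg 0.042 in 29-day liver, Slc2a4 0.061 in 29-day spleen and Cebpa -0.064 in 29-day thymus, where quantile normalization gave -0.15. Housekeeping centring gave Adipoq 0.20 and Pparg 0.0093 in 21-day spleen, Cidea 0.0135 and Pparg 0.0475 in 29-day liver, and Lep 0.11, Cidea 0.39, Pparg 0.22, Slc2a4 0.0505, Aqp7 0.37 and Cebpa 0.20 in 29-day spleen. Averaging complete probes alone gave Pparg 0.092 in 29-day liver. With 1 array left out, ranges that crossed 0 were, in 29-day thymus, Adipoq -0.86 to 1.49, Fabp4 -1.05 to 1.99, Car3 -1.47 to 0.046, Cidea -1.61 to 1.17, Pparg -0.61 to 0.40, Slc2a4 -0.052 to 0.79, Aqp7 -0.22 to 0.93 and Cebpa -0.38 to 0.40. In 29-day spleen they were Cidea -0.13 to 0.0545, Pparg -0.49 to 0.077, Slc2a4 -1.60 to 0.84 and Aqp7 -0.15 to 0.027, in 29-day liver Lep -0.070 to 0.12 and Pparg -0.34 to 0.31, and in 29-day skin Cidea -0.023 to 0.012. In 21-day spleen they were Adipoq -1.46 to 1.01 and Cidea -0.081 to 0.47, and in 21-day liver Cidea -0.017 to 0.32, Pparg -0.018 to 0.30 and Slc2a4 -0.67 to 0.13.

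Over all features, same-numbered arrays were not shown to pair (r of deviations -0.21 to 0.41 over 6 pairs of 29-day tissues, -0.03 at 21 days). The Y-linked Eif2s3y did go with the number at 29 days, at -0.13 to 0.37 on arrays 1 and 3.35 to 5.08 on arrays 2. Same-numbered 29-day arrays may therefore share an animal, and the 29-day tissues may not be independent. With the replicate block (consensus correlation 0.18) the calls in 21-day liver came to 0 and Adipoq there to 0.051, and no other call of the 9 genes changed. The alternatives counted next include the looser threshold of 0.1, which gave the count of 3024 in 21-day spleen from the same fit. Over all features, calls ranged across the alternatives from 0 to 1947 in 21-day liver (738 as reported), 0 to 3024 in 21-day spleen (957), 11 to 424 in 29-day liver (32), 1 to 569 in 29-day skin (12), 0 to 13 in 29-day spleen (0) and 0 to 185 in 29-day thymus (4), and with 1 array left out they reached 1942, 6422, 59, 35, 316 and 13 in the same order.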
